A study of Homo sapiens with 6 samples.

Results

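The tricarboxylic acid (TCA) cycle, the pyruvate dehydrogenase complex that feeds it and the enzymes that exchange carbon with it were followed as a set of 35 genes, chosen by symbol for their place in the pathway, out of 62703 genes in the deposited table. Every symbol matched exactly 1 row, and all 35 passed the filter on low values. The samples were 6 RNA-seq libraries of 786-O cells, an established human clear cell renal cell carcinoma line known for its loss of functional VHL and its constitutive HIF-2α. The cells had been kept in RPMI-1640 with 10% fetal bovine serum, and 3 libraries came from control cells (titled NC, genotype WT) and 3 from cells with the genotype OGT overexpressed. OGT attaches O-linked N-acetylglucosamine to nuclear and cytosolic proteins. The sources used here do not say how it was overexpressed, whether the cells are clones or whether the replicates were separate cultures. P-values therefore cover the spread among these libraries alone, and that spread may be technical.

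Pyruvate made by glycolysis enters mitochondria through the mitochondrial pyruvate carrier. The pyruvate dehydrogenase complex turns it into acetyl-CoA, and pyruvate dehydrogenase kinases switch that complex off by phosphorylation while a phosphatase switches it on again. Citrate synthase joins acetyl-CoA to oxaloacetate, and the cycle then returns to oxaloacetate through isocitrate, oxoglutarate, succinyl-CoA, succinate, fumarate and malate. The kinase gene PDK1 is a textbook target of hypoxia-inducible factors, and whether it is one in these cells was not tested. Inherited loss of FH or of succinate dehydrogenase genes causes renal tumours that are classed apart from clear cell carcinoma.

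Values are TPM, a level scaled by transcript length and library total, and library totals ran from 993935.5 to 996951.6 TPM. Between 11885 and 12202 genes reached 1 TPM in a control library and between 12743 and 12813 in an OGT library. Read totals cannot be had from TPM, so the depth is unknown and counting intervals are left out. OGT itself (ENSG00000147162) had a mean of 23.1 ± 0.525 TPM over the control libraries and 326 ± 47.3 TPM over the OGT libraries (SD, n = 3). The renal tubule markers PAX8, PAX2 and LHX1 were at or above 1 TPM in every library, KRT8 and KRT18 were abundant, and the epithelial markers EPCAM and CDH1 reached at most 0.7 TPM. Of 9 markers of leukocytes, endothelium and fibroblasts, CD68 alone was at or above 1 TPM in every library. PTPRC stood at 12.23 TPM in control replicate 1 and at most 0.07 TPM elsewhere. PECAM1 was at 4.22 TPM in control replicate 1 and 2.65 TPM in OGT replicate 2. PDGFRB was at 2.35 TPM in control replicate 3 and 1.25 TPM in OGT replicate 3. The summed leukocyte markers were 66.8 to 72.8 TPM in control and 101.5 to 119.7 TPM in OGT libraries, most of it CD68, and the endothelial and fibroblast sums reached at most 4.77 TPM. KRT18 was called lower (log2 change -0.35) under all 4 scalings described below. VIM (0.57), FN1 (1.03) and CDH2 (1.32), markers of a mesenchymal state, were called higher under all 4. PAX8 was called higher under 3 of the 4 (0.55 as deposited). KRT8 was called lower under 2, though not as deposited (-0.09), and PAX2 and LHX1 were not called under any. The summed renal tubule markers were 160.7 to 181.8 TPM in control and 224.2 to 257.6 TPM in OGT libraries. The summed mesenchymal markers were 4138 to 4435 TPM in control and 7459 to 7888 TPM in OGT libraries. The part of these markers in the results was not tested. In bulk RNA, less RNA per cell and fewer cells that express a gene cannot be told apart.

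Each change is the OGT mean minus the control mean of log2(TPM + 1), a scale that compresses the changes of low genes, and a gene is called at a limma Benjamini-Hochberg adjusted p below 0.05 over all 12645 genes tested. As deposited, 19 of the 35 genes were called higher, against 39.1% of all tested genes, and 3 lower, against 9.7%. The median change of the 35 was 0.35 and that of all tested genes 0.30, so the set as a whole moved about as far as the transcriptome did. Beneath that median the genes differed widely, and 9 rose by a log2 change of at least 1 (DLAT, DLD, PDHX, IDH3A, SUCLG2, SUCLA2, MDH1, ME1 and ME2), against 10.7% of all tested genes. The 3 that fell were IDH3B, SDHC and MPC2. In 20 members every OGT library lay above every control library (46.2% of all tested genes) and in 4 below (12.4%), while 11 overlapped. Without control replicate 1, the library with PTPRC, 18 were called higher (38.08% of all tested genes) and 3 lower (8.875%).

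Genes of low GC content stood higher in the OGT libraries across the transcriptome. The genes were also fitted after 3 other scalings, of which the removal of a GC and length trend alone uses GC content. In the corrected change, from which the dependence of each library on GC content and transcript length was removed, 6 members were higher (all genes 16%) and 6 lower (all genes 12.8%), and the median of the 35 was -0.02. After quantile normalization 13 were higher (20.2%) and 7 lower (17.8%), and after centring each library on its median 10 were higher (15.3%) and 13 lower (24.2%). Called higher under all 4 scalings were DLD, CS, SUCLG2, SDHD, MDH1 and ME2, against 9.68% of all genes with a reference transcript. Called lower under all 4 were SDHC and MPC2, against 7.35%.

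The promoters of 3 genes are shown, PDK1 as a hypoxia target named above, and ME2 and MPC2 for the largest called rise and fall. Each runs from 250 bases before to 50 after the RefSeq start (GRCh38.p14), 5′ to 3′ on the gene's strand, and capitals mark the hypoxia response core, ACGTG or GCGTG on either strand.
PDK1, plus strand, chr2:172555840-172556139: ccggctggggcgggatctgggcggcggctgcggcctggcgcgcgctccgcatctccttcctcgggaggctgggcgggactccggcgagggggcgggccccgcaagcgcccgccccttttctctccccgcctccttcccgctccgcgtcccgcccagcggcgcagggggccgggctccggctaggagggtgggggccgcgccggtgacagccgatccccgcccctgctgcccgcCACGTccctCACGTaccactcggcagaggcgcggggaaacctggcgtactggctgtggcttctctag
ME2, plus strand, chr18:50878868-50879167: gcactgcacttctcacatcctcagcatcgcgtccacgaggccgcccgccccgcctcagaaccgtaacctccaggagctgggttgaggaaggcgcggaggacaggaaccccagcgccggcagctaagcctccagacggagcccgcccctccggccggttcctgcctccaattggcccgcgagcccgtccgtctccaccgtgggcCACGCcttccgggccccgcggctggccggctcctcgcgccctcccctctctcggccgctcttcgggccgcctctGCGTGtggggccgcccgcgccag
MPC2, minus strand, chr1:167937020-167937319: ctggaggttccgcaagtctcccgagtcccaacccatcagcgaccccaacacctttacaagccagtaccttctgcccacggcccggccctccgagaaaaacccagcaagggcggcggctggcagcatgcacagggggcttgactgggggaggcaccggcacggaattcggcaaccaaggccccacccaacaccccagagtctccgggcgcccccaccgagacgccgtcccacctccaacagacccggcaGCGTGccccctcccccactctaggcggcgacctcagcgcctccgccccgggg
RefSeq promoters were matched for 32 of the 35 genes by symbol. The PDK1 window holds 2 copies of ACGTG, the ME2 window 2 of GCGTG and the MPC2 window a single GCGTG on its own strand. The core ACGTG was in 7 of the 32 windows (21.9%) and in 21.4% of all 35116 promoters of the same length, and GCGTG was in 21 (65.6%) against 36.5%. A CACGTG would count as ACGTG on each strand. Of other motifs, the SP1 motif GGGCGG was in 22 windows (68.8% against 45% of all), the ETS motif CCGGAAG in 7 (21.9% against 10.3%), and the palindromic NRF1 motif in 1, that of SDHD (3.12% against 1.24%). These matches describe the letters in the windows, and the promoters compared were not matched for GC content or expression. GC content was 77%, 73.7% and 69.3% in the PDK1, ME2 and MPC2 windows.

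**Figure D1:**
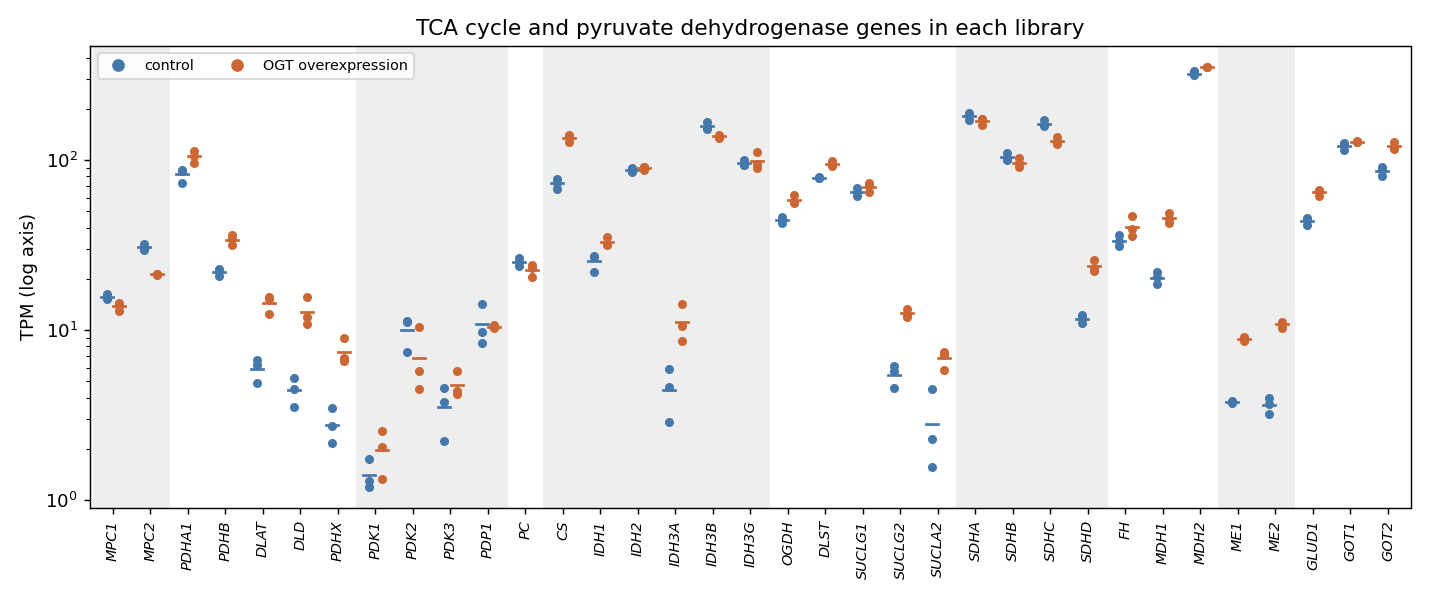
TPM of each of the 35 genes (log axis), with the 3 control libraries in blue and the 3 OGT libraries in orange, a line at each group's mean, and grey bands that separate the genes by role. MDH2 is the highest at 314 to 353 TPM and PDK1 the lowest at 1.2 to 2.54 TPM, and for DLAT, DLD, PDHX, CS, SUCLG2, SDHD, MDH1, ME1 and ME2 every OGT library lies above every control library.

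The mitochondrial pyruvate carrier is a heteromer of MPC1 and MPC2, and MPC2 fell while most called members rose. MPC2 (ENSG00000143158, chromosome 1, 167916729 to 167937040, minus strand, GENCODE release 29 on GRCh38) was at 30.93, 29.75 and 32.06 TPM in the control libraries and at 21.42, 21.12 and 21.37 TPM in the OGT libraries. The groups did not overlap, and the OGT libraries differed among themselves by less than 1 TPM. MPC2 fell by 0.52 (SE 0.0708, limma adjusted p = 0.00127), with a corrected change of -1.03. MPC1 was at 16.2, 15.58 and 15.3 TPM in control and 12.99, 13.92 and 14.47 TPM in OGT libraries, also without overlap. Its change of -0.18 was not called as deposited (adjusted p = 0.155) and was called lower under the other 3 scalings, with a corrected change of -0.47 (adjusted p = 0.00746). PC, the pyruvate carboxylase that makes oxaloacetate directly from pyruvate, was 25.2 ± 1.36 and 22.6 ± 1.97 TPM with overlapping groups, and was not called as deposited (log2 change -0.15, adjusted p = 0.214). PC was called lower under the other 3 scalings (corrected -0.32, adjusted p = 0.022).

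The 5 subunit genes of the pyruvate dehydrogenase complex were all called higher as deposited (39.1% of all tested genes), by unequal amounts. The largest changes were in the core and the shared subunits. DLD, which encodes the E3 dihydrolipoamide dehydrogenase used by several oxoacid dehydrogenase complexes, was at 5.19, 4.51 and 3.54 TPM in control and 10.79, 11.99 and 15.57 TPM in OGT libraries. That is a log2 change of 1.34 (SE 0.185, adjusted p = 0.00128), corrected 0.63 (adjusted p = 0.0418). DLAT, which encodes the E2 acetyltransferase, was at 4.85, 6.26 and 6.64 TPM against 15.59, 15.28 and 12.38 TPM, a change of 1.16 (adjusted p = 0.00114). PDHX, which encodes the protein that anchors E3 to the core, was at 3.46, 2.71 and 2.15 TPM against 8.96, 6.54 and 6.83 TPM, a change of 1.17 (adjusted p = 0.00308). In each of these 3 genes every OGT library lay above every control library. The corrected changes of DLAT and PDHX, 0.45 and 0.61, were not called (adjusted p = 0.0656 and 0.0531). The E1 genes were more abundant and changed less. PDHB rose from 21.9 ± 1.17 to 34.1 ± 2.49 TPM (0.61), and was not called after the correction (0.27) or median centring (0.22, adjusted p = 0.115). PDHA1 rose from 82.3 ± 7.75 to 105 ± 8.21 TPM (0.35), but its change was negative and not called after the correction (-0.18) and after median centring (-0.04), and its call was lost without OGT replicate 1 (adjusted p = 0.0549) and after quantile normalization (adjusted p = 0.0627).

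None of the 4 regulators of the complex was called as deposited (all tested genes: 39.1% higher, 9.7% lower), and PDK1 was the lowest of the set. At an unadjusted limma p below 0.05 the number was also 0. PDK1 was at 1.2, 1.29 and 1.74 TPM in control and 2.54, 2.05 and 1.33 TPM in OGT libraries. The groups overlapped, since the lowest OGT library lay within the control range, and the change was 0.29 with an interval from -0.24 to 0.82 (adjusted p = 0.325). Its sign was negative under the other 3 scalings, with no call. PDK2 was at 11.3, 7.43 and 11.22 TPM against 10.35, 4.5 and 5.74 TPM. Its change of -0.53 had an interval from -1.22 to 0.16 (adjusted p = 0.176), and it was called lower after quantile normalization (adjusted p = 0.04), after median centring (adjusted p = 0.0364) and without OGT replicate 1 (-0.83, adjusted p = 0.0315). Without OGT replicate 2 the change was -0.31 (adjusted p = 0.427). PDK3 was 3.51 ± 1.18 and 4.77 ± 0.842 TPM (0.38, adjusted p = 0.233, negative and not called under the other scalings). PDP1, the phosphatase gene, was 10.8 ± 3.09 and 10.4 ± 0.259 TPM (-0.01, adjusted p = 0.959). Its corrected change of -0.75 was called lower (adjusted p = 0.0255). The fourth kinase gene PDK4, from the list of related genes, was at most 0.44 TPM in control and 1.25 to 2.07 TPM in OGT libraries. It passed the filter on low values through the OGT libraries alone, so these levels are given with no test.

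The sum of the 4 kinase genes was 15.3 ± 3.44 TPM in control and 15.2 ± 3.71 TPM in OGT libraries. Within that sum the PDK2 share was 67.6%, 65.5% and 63.2% in control and 53.5%, 36.9% and 40.8% in OGT libraries. The mean PDK4 share was 2.54% in control and 10.4% in OGT libraries, and PDK4 passed the filter through the OGT libraries alone. The PDK2 share thus depends in part on PDK4, and the PDK2 level itself was not called as deposited.

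**Figure D2:**
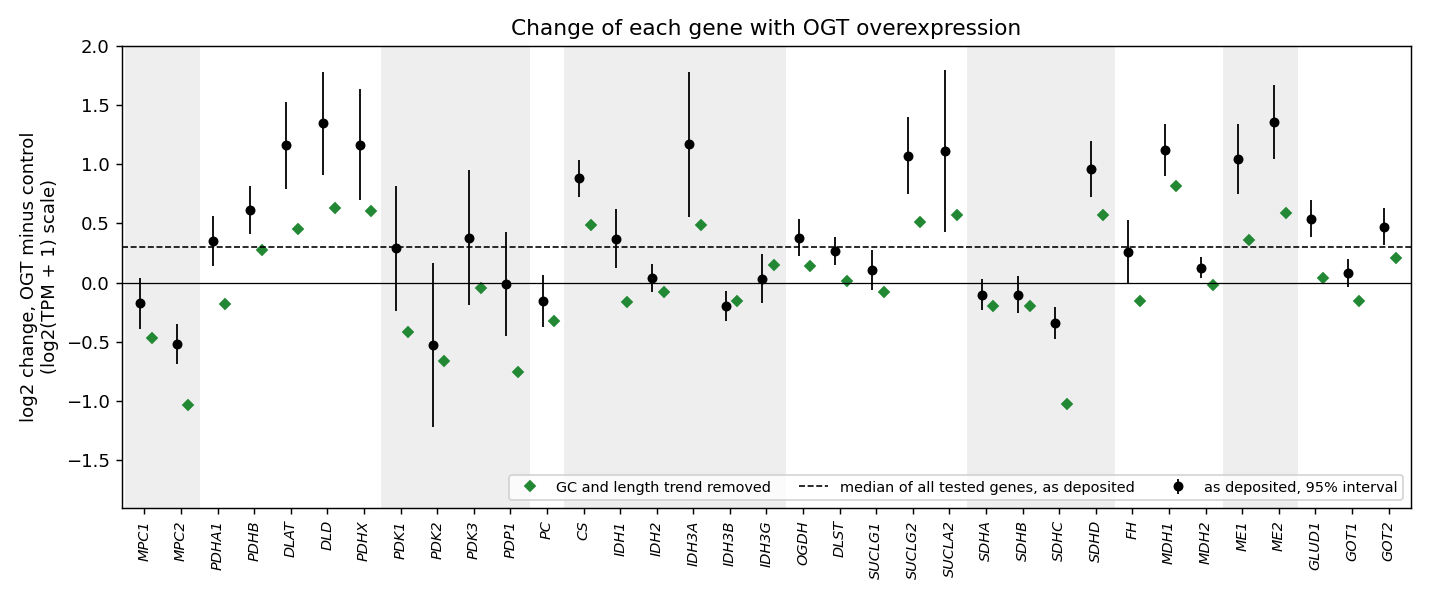
Log2 change of each gene, OGT overexpression minus control, as deposited (black, with the 95% interval of the limma fit) and with each library's GC and length trend removed (green), in the order of roles shown by the grey bands. The dashed line is the median of all tested genes, 0.30. MPC2, IDH3B and SDHC lie below 0 as deposited with intervals that exclude 0, and the corrected values lie below the deposited ones for all 35 genes except IDH3B and IDH3G.

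At the entry of the cycle CS rose and the isocitrate steps split. CS, which encodes citrate synthase (ENSG00000062485, chromosome 12, 56271699 to 56300392, minus strand), was at 77.41, 73.5 and 67.9 TPM in control and 135.75, 141.14 and 128.36 TPM in OGT libraries. The groups lay far apart relative to their spread, with a log2 change of 0.88 (SE 0.0663, adjusted p = 1.46e-04) and a corrected change of 0.49 (adjusted p = 0.00194). It was the most abundant of the 6 genes called higher under all 4 scalings.

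The mitochondrial NAD-dependent isocitrate dehydrogenase is built from the products of IDH3A, the catalytic subunit, and of IDH3B and IDH3G. IDH3A was at 5.88, 4.59 and 2.87 TPM in control and 14.16, 10.57 and 8.62 TPM in OGT libraries, a rise of 1.17 (adjusted p = 0.00946). It was called after median centring as well (0.78) but not after quantile normalization (0.76, adjusted p = 0.0528) or the correction (0.49, adjusted p = 0.191). IDH3B fell from 158 ± 8.41 to 138 ± 3.07 TPM (-0.20, adjusted p = 0.0187). The IDH3B call was lost after the correction (-0.16, adjusted p = 0.0654), without control replicate 2 (adjusted p = 0.0576) and without OGT replicate 2 (adjusted p = 0.0595). IDH3G, at 95.9 ± 4.2 and 98.5 ± 11.6 TPM, did not pass the threshold (0.03, adjusted p = 0.781), with a change of -0.36 called lower after median centring. Levels of the catalytic subunit's transcript thus stood far below those of its partners in all 6 libraries. Among the NADP-dependent enzymes, cytosolic IDH1 rose from 25.3 ± 2.97 to 33 ± 2.09 TPM (0.37, adjusted p = 0.0235), and mitochondrial IDH2 was 86.8 ± 2.58 and 89.3 ± 2 TPM (0.04, adjusted p = 0.527). After median centring IDH2 was called lower (-0.35, adjusted p = 0.00418). IDH1 lost its call under the other 3 scalings (corrected -0.17), without control replicate 2 (adjusted p = 0.0533), without OGT replicate 1 (adjusted p = 0.0785) and with no filter on low values (adjusted p = 0.0562).

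In the oxoglutarate and succinyl-CoA steps 4 of 5 genes were called higher as deposited (39.1% of all tested genes) and 1 after the correction (16%). OGDH and DLST encode E1 and E2 of the oxoglutarate dehydrogenase complex, whose E3 is the DLD product described above. OGDH rose from 44.4 ± 1.53 to 58.1 ± 3.46 TPM (0.38, adjusted p = 0.00361) and DLST from 78.5 ± 0.45 to 94.9 ± 3.34 TPM (0.27, adjusted p = 0.0043). Both were no longer called after the correction (0.14 and 0.02) or after median centring, which turned them to -0.008 and -0.12, and OGDH was not called after quantile normalization (adjusted p = 0.0769).

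Succinyl-CoA ligase pairs the alpha subunit SUCLG1 with a beta subunit, SUCLG2 in the GTP-forming and SUCLA2 in the ATP-forming enzyme. SUCLG2 was at 5.72, 4.56 and 6.12 TPM in control and 12.4, 13.23 and 11.94 TPM in OGT libraries, a rise of 1.07 (adjusted p = 9.64e-04, corrected 0.52). SUCLA2 was at 1.57, 4.51 and 2.29 TPM against 7.45, 7.13 and 5.84 TPM. SUCLA2 varied more among the control libraries than SUCLG2 did. It rose by 1.11 (adjusted p = 0.0176), and its call was lost without OGT replicate 1 (adjusted p = 0.0562), without OGT replicate 2 (adjusted p = 0.0534) and under the other 3 scalings (corrected 0.57, adjusted p = 0.205). The alpha subunit SUCLG1, at 64.9 ± 3.58 and 69.8 ± 4.47 TPM, did not pass the threshold (0.10, adjusted p = 0.268), and was called lower after median centring (-0.28, adjusted p = 0.0183).

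Succinate dehydrogenase, which is also respiratory complex II, had subunit genes that moved in opposite directions. SDHC and SDHD encode the 2 membrane anchor subunits. SDHC (ENSG00000143252, chromosome 1, 161314257 to 161375340, plus strand) was at 161.63, 171.52 and 158.7 TPM in control and 136.69, 123.55 and 127.82 TPM in OGT libraries. SDHD (ENSG00000204370, chromosome 11, 112086773 to 112120013, plus strand) was at 12.26, 10.94 and 11.79 TPM in control and 23.11, 22.1 and 25.87 TPM in OGT libraries. Neither gene's groups overlapped. SDHC fell by 0.34 (SE 0.0562, adjusted p = 0.00274) and SDHD rose by 0.96 (SE 0.0994, adjusted p = 4.22e-04), and both calls held under all 4 scalings. The corrected change of SDHC, -1.03, rests on a reference transcript of 13566 bases, which need not be the one expressed. The same limit holds for the corrected changes of PDK1 (14193 bases) and ME2 (9415 bases). The corrected change of SDHD was 0.57. The flavoprotein gene SDHA was 182 ± 8.6 and 170 ± 8.04 TPM (-0.10, adjusted p = 0.171) and the iron-sulfur subunit gene SDHB was 104 ± 5.03 and 96.5 ± 6.27 TPM (-0.10, adjusted p = 0.243). SDHA was called lower after the correction (-0.20, adjusted p = 0.0337) and SDHB after quantile normalization (-0.22, adjusted p = 0.0452), and both after median centring. SDHA is uncertain because pseudogenes with its symbol were also listed, up to 10.3 TPM for SDHAP4.

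FH, the fumarase gene, was at 31.07, 36.08 and 33.19 TPM in control and 35.53, 39.27 and 46.59 TPM in OGT libraries. The groups overlapped, and FH was not called (0.26, interval -0.005 to 0.53, adjusted p = 0.0945), with a corrected change of -0.15. Both malate dehydrogenase genes rose as deposited. Cytosolic MDH1 was at 21.86, 18.58 and 20.51 TPM in control and 48.95, 42.36 and 44.82 TPM in OGT libraries, without overlap. It rose by 1.12 (SE 0.0915, adjusted p = 1.89e-04), and its corrected change of 0.81 was the largest corrected rise of the 35. Mitochondrial MDH2, the most abundant member, was at 314.41, 319.49 and 333.71 TPM against 352.92, 352.02 and 350.61 TPM, also without overlap. The rise of MDH2 was 0.13 (adjusted p = 0.0288). After median centring it was called lower (-0.26), after the correction it was -0.02 and not called, and its call was lost without any single one of control replicates 1 and 2 and OGT replicates 1 and 2 (adjusted p between 0.0713 and 0.0896), with a replicate block (adjusted p = 0.0737), with no filter (adjusted p = 0.0528) and after quantile normalization (adjusted p = 0.0743).

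Malic enzymes turn malate back into pyruvate, ME1 in the cytosol with NADP and ME2 in mitochondria. ME2 (ENSG00000082212, chromosome 18, 50878734 to 50954257, plus strand) was at 3.2, 3.65 and 3.96 TPM in control and 10.83, 10.32 and 11.18 TPM in OGT libraries. Its rise of 1.36 (SE 0.132, adjusted p = 3.39e-04) was the largest of the 35, and the corrected change was 0.59 (adjusted p = 0.021). ME1 was at 3.77, 3.81 and 3.73 TPM against 8.62, 8.78 and 9.15 TPM, with groups about as tight. ME1 rose by 1.05 (adjusted p = 7.09e-04), and its corrected change of 0.36 was not called (adjusted p = 0.0668).

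Glutamate dehydrogenase (GLUD1) and the aspartate aminotransferases link the cycle to amino acids. GLUD1 rose from 44.1 ± 2.16 to 64.5 ± 2.96 TPM (0.54, adjusted p = 8.24e-04), with no call after the correction (0.04) or median centring (0.15). Its reads may be shared with pseudogenes, of which GLUD1P2 reached 9.95 TPM. Mitochondrial GOT2 rose from 86.5 ± 5.68 to 120 ± 5.84 TPM (0.47, adjusted p = 0.00144), with no call after the correction (0.21, adjusted p = 0.0538) or median centring (0.08, adjusted p = 0.428). Cytosolic GOT1 was at 124.23, 125.08 and 114.76 TPM in control and 126.81, 127.54 and 130.07 TPM in OGT libraries. The groups did not overlap, but the change of 0.08 was not called (adjusted p = 0.239), and it was called lower after median centring (-0.31).

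A TPM ratio of 2 genes within a library is not altered by a single scaling factor for that library, though quantile normalization and the correction do alter it, and 19 pairs of isozymes, subunits or opposing enzymes were compared between the groups with an exact two-sided permutation test on log2 ratios of (TPM + 1), where the added 1 leaves some dependence on scale for low genes. With 3 libraries against 3 the smallest p this test can give is 0.1, so no pair can pass the threshold, and the values stand as a description. Adjusted over the 19 pairs, the smallest value was 0.158. The ratio of IDH3A to IDH3B was 0.0387, 0.0274 and 0.0186 in control and 0.1, 0.0775 and 0.0637 in OGT libraries, a difference of 1.36 in log2 of (TPM + 1) (exact permutation p = 0.1). The ratio of MDH1 to MDH2 was 0.0695, 0.0582 and 0.0615 in control and 0.139, 0.12 and 0.128 in OGT libraries (difference 1.00, exact permutation p = 0.1). For SDHA to SDHD it was 14.1, 17.4 and 15.6 in control and 7.55, 7.25 and 6.72 in OGT libraries (difference -1.06, exact permutation p = 0.1). In these 3 pairs the groups did not overlap. GOT1 to GOT2 went from between 1.31 and 1.55 to between 1 and 1.12, and MPC1 to MPC2 from between 0.477 and 0.524 to between 0.606 and 0.677. PDK1 to PDK2 was at most 0.174 in control and at least 0.232 in OGT libraries. The ratios of SDHA to SDHB (difference -0.002), DLAT to PDHX (-0.006), SUCLA2 to SUCLG2 (0.04) and PDK1 to PDK3 (-0.09) overlapped between the groups, and these 4 changed sign when single libraries were left out. Ratios between genes of unlike GC content and length still carry those trends.

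**Figure D3:**
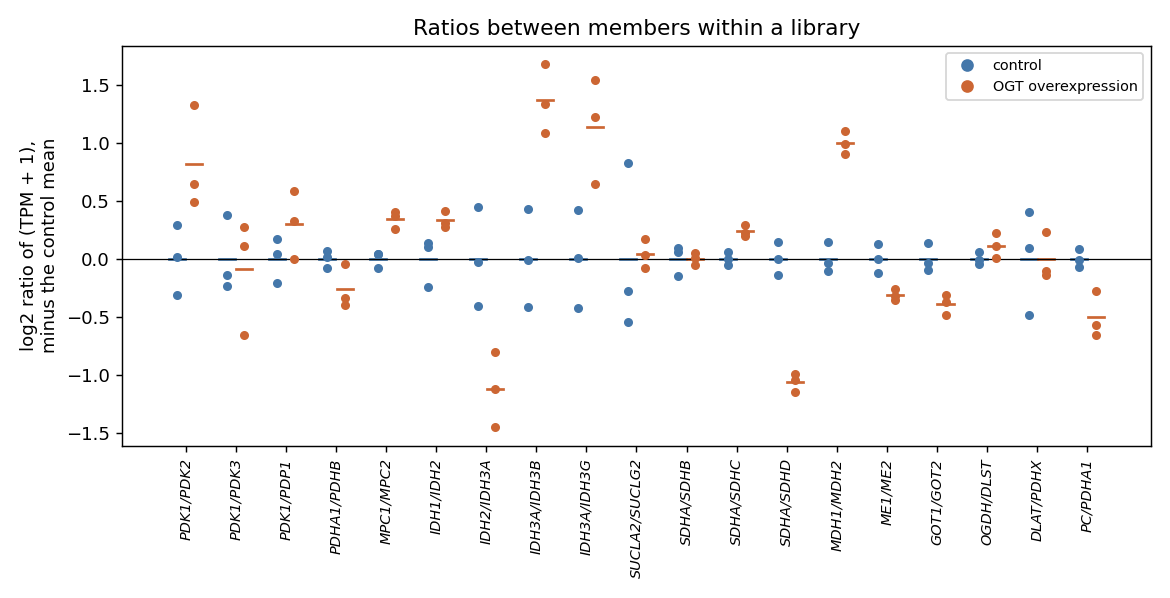
Log2 ratio of (TPM + 1) for each of the 19 pairs in each library, minus the mean of the control libraries, with control in blue, OGT overexpression in orange and a line at each group's mean. IDH3A/IDH3B and MDH1/MDH2 lie above and SDHA/SDHD below the control libraries by about 1 or more on the log2 scale, and SDHA/SDHB stays around 0.

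Across the 35 genes the change ran with GC content (Spearman rho -0.497) and with the mean level (-0.478), given as descriptions over genes that share the same 6 libraries. Over 12348 tested genes the corresponding values were -0.472 and -0.168. Of the 18 members of at most 45% GC, 11 were called higher and 2 lower with a median change of 0.79, and of the 17 above 45% GC, 8 were higher and 1 lower with a median of 0.10. Of all tested genes of at most 45% GC, 55.7% were called higher and 2.82% lower with a median of 0.69, and above 45% GC 32.3% and 12.9% with a median of 0.18. MPC2 and SDHC, at 42.2% and 42.6% GC, fell where most genes of like GC content stood higher. The SDHC value is that of a reference transcript of 13566 bases, which need not be the one expressed. The summed level of the 35 genes was 1914, 1983 and 1957 TPM in control and 2238, 2142 and 2195 TPM in OGT libraries.

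**Figure D4:**
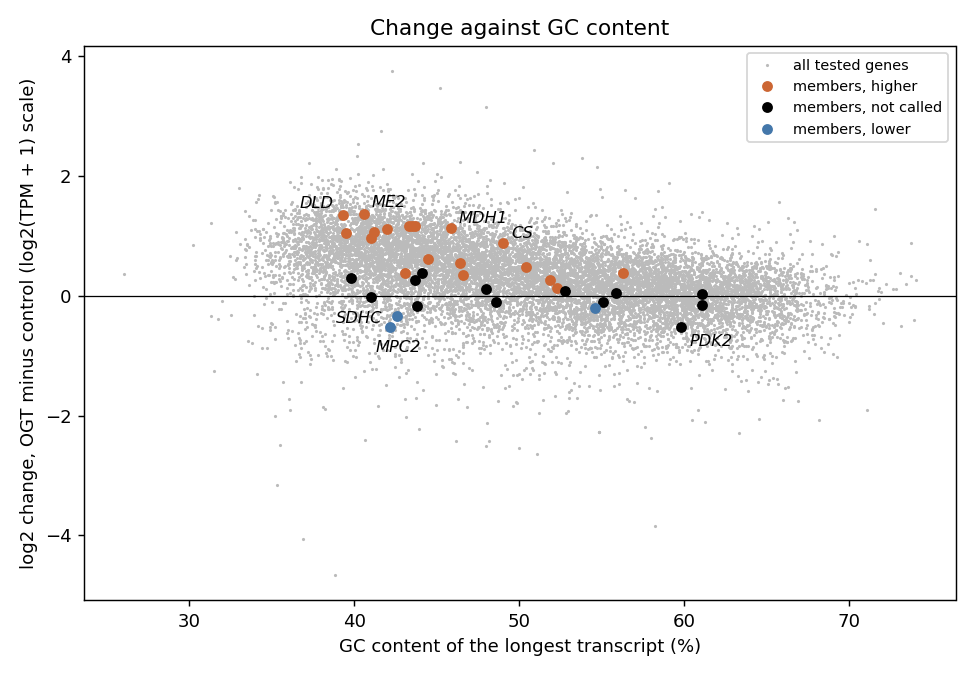
Log2 change as deposited against the GC content of each gene's longest reference transcript, for all tested genes (grey) and the 35 members (orange higher, blue lower, black not called). The members follow the slope of the grey points, and SDHC and MPC2 lie below 0 at about 42% GC.

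Other genes of the pathway were a list of 44 symbols, of which 43 were in the table and 31 were tested. Of the 31, 17 were called higher and 3 lower, against 39.1% and 9.7% of all tested genes. The 17 include PDK4, which passed the filter on low values through the OGT libraries alone, so its call carries no weight. The median change of the 31 was 0.54 and that of all tested genes 0.30. After the correction 4 were higher and 1 lower, against 16% and 12.8%, and the medians were 0.04 and 0.03. LDHB, which encodes the heart-type lactate dehydrogenase subunit, rose from 125 ± 5.25 to 275 ± 14 TPM (1.14, adjusted p = 4.28e-05, corrected 0.87). PDPR, the regulatory subunit of the pyruvate dehydrogenase phosphatase, rose from 4.62 ± 0.427 to 9.47 ± 0.965 TPM (0.90, corrected 0.45), and cytosolic aconitase ACO1 from 13.4 ± 0.482 to 23.9 ± 1.8 TPM (0.78, with no call after the correction). SDHAF4 and SDHAF1, assembly factors of succinate dehydrogenase, fell from 6.68 ± 1.51 to 3.48 ± 0.298 TPM (-0.76, corrected -1.06) and from 18.9 ± 0.659 to 15 ± 0.288 TPM (-0.31, with no call after the correction). PCK2, the mitochondrial phosphoenolpyruvate carboxykinase gene, fell from 233 ± 4.61 to 213 ± 8.98 TPM (-0.13, adjusted p = 0.0461, with no call after the correction). The number called lower was 1 without control replicate 2, without OGT replicate 1, without OGT replicate 2 or with a replicate block. In these fits 8.182%, 8.279%, 8.368% and 8.628% of all tested genes were called lower.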

How the data were processed

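Total RNA of 786-O cells was sequenced from TruSeq libraries, per the labels' protocols. The authors deposited TPM per gene, the unit being inferred from the values, in 1 column per sample for human Ensembl identifiers. The aligner, the counting tool and the annotation were not given in the sources used here. Builds named in the submitters' processing notes are GRCm38 and mm10, which are mouse builds. Groups came from the sample titles. With limma 3.58.1 (R 4.3.3), log2(TPM + 1) was tested for genes that reached 1 TPM in 3 or more libraries (eBayes with trend and robust, two-sided, all 6 libraries, no covariate). The fit was tested on simulated data with limma's shrunken SDs as noise, chosen after each gene's own SD had recovered fewer of the largest changes. Alternatives were a pseudocount of 0.1, no filter, a mean of at least 5 TPM, quantile normalization, median centring, a correction per library for GC content and for transcript length (natural splines, 4 degrees of freedom, longest GENCODE release 29 transcript, protein-coding where there is one), a replicate block and each replicate left out. No 2 libraries were duplicates: at most 0.443% of tested genes had equal values, and Pearson correlations across genes were 0.966 to 0.981 within and 0.94 to 0.954 between groups. Named were all 35 members, OGT, and up to 4 related genes in each direction with the smallest adjusted p. PDK4 was added after its values were seen. The members, lists and alternatives were chosen with earlier results of these data known. Some genes of the pathway and marker lists are not reported by name here.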

Additional observations from a re-analysis of the deposited data

How the results depend on the processing

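All genes called numbered 6168 as deposited (4941 higher, 1227 lower), 4803 after quantile normalization (2558 and 2245), 5003 after median centring (1937 and 3066) and 3556 with the GC and length trend removed (1974 and 1582). Members were 19 higher and 3 lower as deposited, 13 and 7, 10 and 13, and 6 and 6 under these scalings, and related genes were 17 and 3, 7 and 4, 6 and 7, and 4 and 1. A pseudocount of 0.1 changed no member's call. Leaving out single replicates gave 4679 to 5788 genes, 15 to 19 members higher and 2 to 4 lower, and 12 to 16 related genes higher and 1 to 3 lower. In those fits 30.65% to 38.08% of all tested genes were called higher and 8.182% to 9.31% lower. With a replicate block 18 members were higher and 3 lower (MDH2 lost its call) and 15 related genes were higher and 1 lower. Of all tested genes, 34.65% were higher and 8.628% lower with that block. Correlations of same-numbered libraries' deviations were -0.0194, 0.00264 and 0.0166, so the numbers were not used as pairs. Signs changed after median centring for PDHA1 (-0.04), PDK1 (-0.10), PDK3 (-0.008), IDH1 (-0.017), IDH2 (-0.35), IDH3G (-0.36), OGDH (-0.008), DLST (-0.12), SUCLG1 (-0.28), FH (-0.13), MDH2 (-0.26) and GOT1 (-0.31). With the trend removed they changed for PDHA1 (-0.18), PDK1 (-0.42), PDK3 (-0.042), IDH1 (-0.17), IDH2 (-0.079), SUCLG1 (-0.082), FH (-0.15), MDH2 (-0.024) and GOT1 (-0.15), and after quantile normalization for PDK1 (-0.077), PDK3 (-0.023), IDH2 (-0.068), IDH3G (-0.068), SUCLG1 (-0.059) and GOT1 (-0.023). Leaving out single replicates moved PDP1 between -0.16 and 0.19, IDH3G between -0.059 and 0.098, and the ratios PDK1/PDK3 between -0.28 and 0.19, SUCLA2/SUCLG2 between -0.23 and 0.45, SDHA/SDHB between -0.077 and 0.045, and DLAT/PDHX between -0.25 and 0.19. The cause of these changes was not tested. The depth is unknown, which limits statements on low genes such as PDK1.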
